A study of Homo sapiens with 12 samples.

Results

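The 10 genes described here are 8 well-known targets of the YAP-TEAD transcription complex (CCN1, CCN2, ANKRD1, AMOTL1, AMOTL2, LATS2, AXL and AJUBA) and 2 of the TEAD DNA-binding factors themselves (TEAD1 and TEAD4). They were picked by gene symbol from a count table of 60603 genes. No measured value served as a rule for the choice, but earlier results of these data were known when it was made. All 10 passed the low-count filter that left 17775 genes for testing. The 12 poly(A) RNA-seq libraries came from T24, an established human bladder carcinoma line supplied by a cell bank, in 4 groups of 3. These were T24 cells with the genotype label WT and no treatment, WT cells given 5-Ad-IAA, cells with the genotype label NS1 and no treatment, and NS1 cells given 5-Ad-IAA. The series belongs to work on AlissAID, an auxin-inducible degron system, in which 5-Ad-IAA (an adamantyl auxin analogue) is the ligand that triggers degradation. The labels do not spell out NS1, so the target of degradation, the promoter that drives the degron parts and whether the NS1 line is 1 clone are not described here, nor are the dose and duration of 5-Ad-IAA. They also do not say that replicates were separate cultures, so p-values measure the spread between these libraries, which may be technical. In bulk RNA, fewer cells expressing a gene and less RNA per cell cannot be told apart.

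YAP (YAP1) and its paralogue TAZ (WWTR1) are transcriptional coactivators without a DNA-binding domain of their own. When the Hippo kinases MST and LATS are active they phosphorylate YAP and TAZ, which are then held in the cytoplasm or degraded; otherwise the pair enters the nucleus and binds TEAD factors on target genes. The classic targets encode secreted matricellular proteins (CCN1, CCN2) and a muscle ankyrin-repeat protein (ANKRD1), while LATS2 and the angiomotins feed back on YAP. The pathway responds to cell density, adhesion and actin tension, and in bladder carcinoma as in other carcinomas it is known for its links to growth and invasion.

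TEAD factors recognise the letters GGAATG, so the promoters of 4 of the targets are shown with the letters of that motif in capitals. The sequences are the 250 bases before the start site, written 5′ to 3′ on the gene's strand, from RefSeq (build GRCh38.p14). The CCN2 promoter (chr6:131951373-131951622, minus strand) is shown because it holds 3 copies. The ANKRD1 promoter (chr10:90921088-90921337, minus strand) is shown because it holds 2 copies. AMOTL2 (chr3:134374448-134374697, minus strand) and AJUBA (chr14:22976843-22977092, minus strand) are shown because these genes rose with 5-Ad-IAA in NS1 cells when libraries were paired; in AMOTL2 the capitals are the motif read on the opposite strand.
CCN2: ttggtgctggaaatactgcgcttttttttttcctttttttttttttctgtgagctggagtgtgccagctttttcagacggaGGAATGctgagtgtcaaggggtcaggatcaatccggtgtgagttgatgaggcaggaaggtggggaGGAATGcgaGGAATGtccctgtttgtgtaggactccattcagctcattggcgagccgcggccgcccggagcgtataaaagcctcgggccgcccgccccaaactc
ANKRD1: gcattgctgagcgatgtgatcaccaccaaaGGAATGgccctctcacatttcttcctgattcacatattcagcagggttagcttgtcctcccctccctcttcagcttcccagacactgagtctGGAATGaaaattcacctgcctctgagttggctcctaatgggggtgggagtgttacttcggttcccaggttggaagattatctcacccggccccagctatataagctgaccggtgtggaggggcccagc
AMOTL2: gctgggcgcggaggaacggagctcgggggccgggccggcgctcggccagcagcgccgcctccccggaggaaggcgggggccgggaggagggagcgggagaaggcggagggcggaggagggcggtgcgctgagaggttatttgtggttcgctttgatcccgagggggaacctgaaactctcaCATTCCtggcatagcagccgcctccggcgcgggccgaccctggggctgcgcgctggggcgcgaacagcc
AJUBA: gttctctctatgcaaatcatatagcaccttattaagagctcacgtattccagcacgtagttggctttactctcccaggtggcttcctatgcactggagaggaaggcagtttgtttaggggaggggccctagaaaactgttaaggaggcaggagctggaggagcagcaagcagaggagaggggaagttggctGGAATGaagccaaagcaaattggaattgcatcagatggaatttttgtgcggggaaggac

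RefSeq windows of 300 bases (250 before and 50 after the start) were matched for 7 of the 10 genes, with 10 windows in all since some genes have more than 1 start. CCN1, TEAD1 and TEAD4 were not matched. GGAATG was searched on both strands and was found in 6 of the 10 windows and in 6 of the 7 genes. Across all 35116 RefSeq promoters of the same length, 14% held it at least once, 1.37% at least 2 times and 0.128% at least 3 times. Counted from the start site, the CCN2 copies began at -169, -104 and -95 and the ANKRD1 copies at -220 and -128. The remaining copies began at -69 in AMOTL2, -59 in AJUBA, -212 at a second AXL start and 10 in LATS2, which lies after the start; the AMOTL1 window held none. TGANTCA (N is any base), a loose form of the AP-1 motif, reads the same on both strands and does not overlap the TEAD letters found here. It occurred once among the 10 windows, at -195 in ANKRD1, where the letters are TGATTCA, against 7.71% of all promoters. The CArG box bound by SRF occurred in none of the 10 windows and in 1.29% of all promoters. A match describes the letters in a window and is not evidence of binding.

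**Figure D1:**
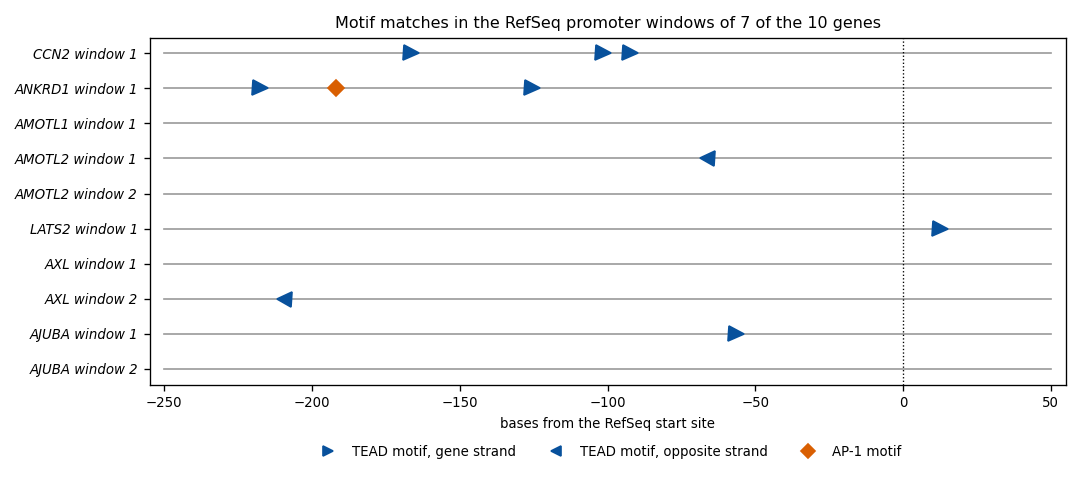
Motif matches in the 10 RefSeq promoter windows, with the distance from the start site in bases on the horizontal axis. Triangles are TEAD motif letters (direction gives the strand) and the diamond is the AP-1 motif; CCN2 holds 3 TEAD motifs and ANKRD1 holds 2 plus the AP-1 motif.

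Library totals ranged from 10593934 to 20266996 counts, and the lowest count of any of the 10 genes in a library was 174 (ANKRD1). Replicates labelled 1 stood apart for some of the genes: CCN1 and CCN2 were lowest in replicate 1 in 4 of 4 groups, and AXL was highest in replicate 1 in 4 of 4 groups. None of the others was lowest or highest there in all 4 groups. AMOTL2 was lowest there in 3 groups, and AJUBA and TEAD4 were each lowest in 2 and highest in 2. The urothelial cytokeratins KRT7, KRT8 and KRT18 were abundant, with a summed urothelial marker level of 3870 to 10500 CPM (counts scaled to library size) over the 12 libraries, whereas KRT5 and UPK3A had 0 counts in every library and UPK1B had 8 counts in all. Among other cell types, the fibroblast marker DCN had 0 counts and LUM 3, and the leukocyte markers PTPRC and CD3E had 3 and 1. The sum of the 4 fibroblast markers was 2.47 to 5.37 CPM in untreated NS1 libraries and 8.25 to 21.6 CPM in treated ones. The sum of the 3 endothelial markers was 0.0616 to 1.06 CPM and 1.35 to 4.06 CPM, and that of the 4 leukocyte markers 0.555 to 0.96 CPM and 1.19 to 2 CPM, in the same order. PDGFRB (log2 fold change 2.38, SE 0.615, adjusted p = 0.0374) and PECAM1 (log2 fold change 3.19, SE 0.748, adjusted p = 0.0251) passed the test for the 5-Ad-IAA effect in NS1 cells, as did the urothelial transcription factor GATA3 (log2 fold change 1.34, SE 0.322, adjusted p = 0.0282). Each of these 3 calls was lost in 5 of the 6 fits that left out 1 NS1 library. The part of these markers in the results below was not tested.

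Per length of exon, the 10 genes spanned a wide range of expression. Mean RPKM (CPM per kilobase of exon) over the 12 libraries was 181 for CCN1, with single libraries from 89.6 to 276, then 143 for CCN2 and 124 for AXL. ANKRD1 followed at 25.0, AMOTL2 at 18.9, TEAD1 and AJUBA at 17.6 each, TEAD4 at 13.2, AMOTL1 at 9.22 and LATS2 at 5.87 RPKM. Neighbours in this order had overlapping ranges over the libraries, except AXL (90.7 to 186 RPKM) and ANKRD1 (7.92 to 56.0 RPKM). The 3 most abundant were the 2 secreted matricellular proteins and the AXL receptor.

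Between untreated lines, the classic YAP-TEAD targets were higher in NS1 than in WT cells. CCN1, CCN2, ANKRD1, AMOTL2, AXL and AJUBA passed the test (adjusted p under 0.05, Benjamini-Hochberg over 17775 genes, edgeR's quasi-likelihood test), all 6 of them higher in NS1, by 1.52 to 2.78 times. Over all genes tested, 12.5% passed and 5.45% passed in the higher direction. LATS2, AMOTL1, TEAD1 and TEAD4 did not pass. With 5-Ad-IAA in both lines, 7 of 10 passed, 6 higher and AMOTL1 lower, where 28.2% of all genes passed, 13.6% higher and 14.5% lower. The median log2 difference of the 10 genes was 0.61 untreated and 0.76 with 5-Ad-IAA, beside medians of 8.83e-05 and -0.0036 over all genes tested. Markers moved with the treated lines as well: 3 of the 6 urothelial markers tested were higher in treated NS1 (GATA3 by 1.38, KRT7 by 1.16 and PPARG by 0.84 on the log2 scale) and 1 of the 2 fibroblast markers tested (PDGFRB by 2.52), with summed urothelial levels of 5000 to 5810 CPM in treated WT and 4800 to 10500 CPM in treated NS1 and summed fibroblast levels of 2.61 to 6.12 CPM and 8.25 to 21.6 CPM. Without replicate 2 or without replicate 3 of every group, the calls of GATA3, KRT7, PPARG and PDGFRB were all lost (adjusted p 0.063 to 0.282 by edgeR). KRT7 overlapped between treated lines, and its call was also lost without WT replicate 2 or 3 or NS1 replicate 2 or 3. The PPARG call was lost without WT replicate 2 or 3 or NS1 replicate 1, and with library totals. Between untreated lines edgeR called 0 of the 10 markers tested, and 2 had an unadjusted p under 0.05. Their part in these differences was not tested.

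**Figure D2:**
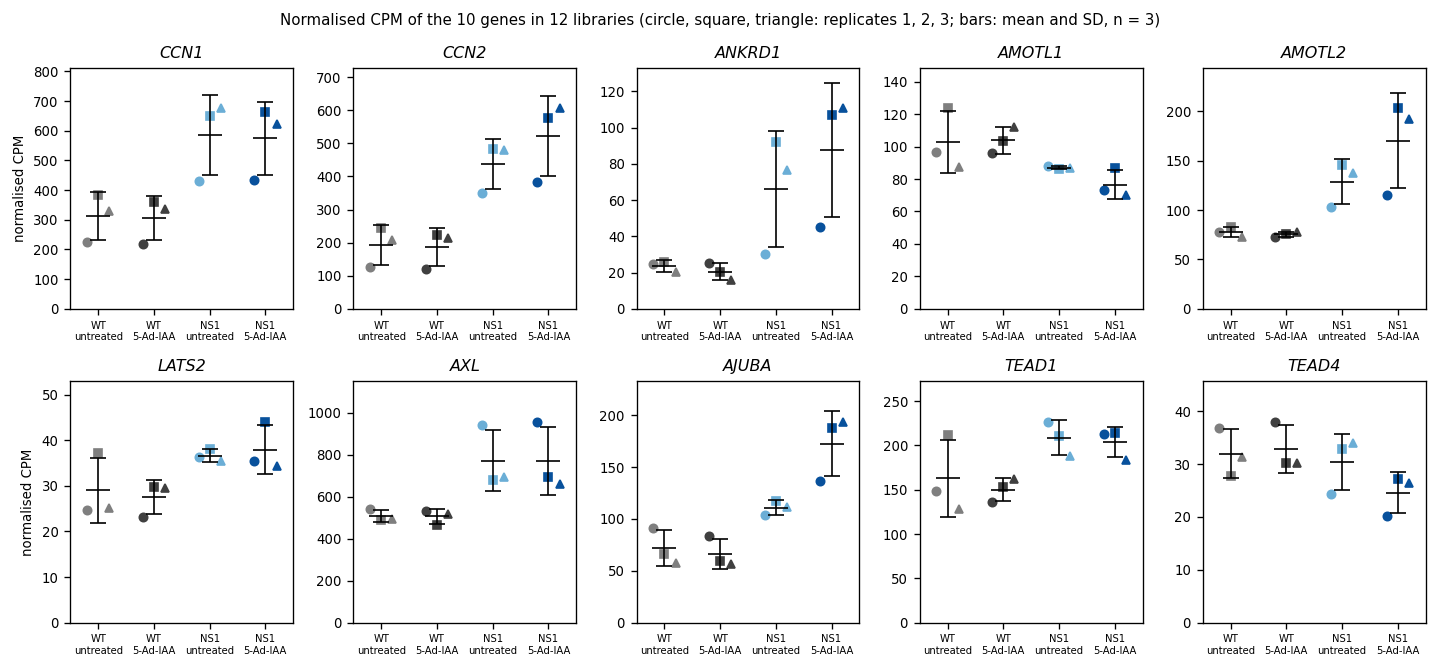
Normalised CPM of each of the 10 genes in the 12 libraries, with 1 panel per gene and the 4 groups on the horizontal axis; circles, squares and triangles are replicates 1, 2 and 3, and bars are the mean and SD of 3 libraries. CCN1, CCN2, ANKRD1, AMOTL2, AXL and AJUBA lie higher in all 6 NS1 libraries than in any of the 6 WT libraries.

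CCN1 (ENSG00000142871.17, chromosome 1), also named CYR61, is a matricellular protein that signals through integrins. In untreated WT libraries it stood at 226, 384 and 331 CPM (replicates 1, 2 and 3, the order used throughout), and in WT with 5-Ad-IAA at 219.9, 361 and 337 CPM. In NS1 it stood at 430.4, 651 and 677 CPM untreated and at 436, 664 and 623 CPM with 5-Ad-IAA. The lines did not overlap in either condition, although replicate 1 was the lowest everywhere. The log2 difference was 0.90 untreated (1.87-fold, SE 0.245, adjusted p = 0.0296) and 0.91 with 5-Ad-IAA (1.88-fold, SE 0.245, adjusted p = 0.0144).

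CCN2 (ENSG00000118523.6, chromosome 6), or CTGF, is a second matricellular protein that promotes matrix deposition. WT libraries held 128, 244 and 207 CPM untreated and 119.5, 222 and 215 CPM with 5-Ad-IAA. NS1 libraries held 349, 482 and 479.5 CPM untreated and 383, 577 and 607 CPM with 5-Ad-IAA. Every NS1 library lay above every WT library, and 3 of 3 same-numbered NS1 pairs were higher with 5-Ad-IAA. The log2 difference between lines was 1.18 untreated (2.27-fold, SE 0.273, adjusted p = 0.014) and 1.49 with 5-Ad-IAA (2.82-fold, SE 0.275, adjusted p = 0.00149). An antisense gene, AL133346.1, shares 195 exon bases with CCN2 and held at most 575 counts in a library, against at least 2141 for CCN2.

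ANKRD1 (ENSG00000148677.6, chr10:90912096-90921276 in GENCODE 29, GRCh38), a cardiac and skeletal muscle ankyrin-repeat protein that is a common YAP reporter, showed the widest spread. WT libraries held 24.9, 26.1 and 20.1 CPM untreated and 25.1, 20.4 and 15.7 CPM with 5-Ad-IAA. NS1 libraries held 30.5, 91.9 and 76.5 CPM untreated and 45.2, 107 and 111 CPM with 5-Ad-IAA. Replicate 1 of NS1 was far below the other 2 in both conditions and yet above every WT library. The log2 difference between lines was 1.48 untreated (2.78-fold, SE 0.379, adjusted p = 0.023) and 2.09 with 5-Ad-IAA (4.25-fold, SE 0.385, adjusted p = 0.00151), the largest among the 10 genes in both conditions.

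The feedback genes did not move as one. AMOTL2 (ENSG00000114019.14, chr3:134355874-134375479 in GENCODE 29, GRCh38), an angiomotin-like scaffold that binds and restrains YAP, held 77.3, 83.2 and 72.6 CPM in untreated WT libraries and 72.5, 75.6 and 77.6 CPM in treated ones. In NS1 it held 103, 145 and 138 CPM untreated and 115, 203 and 192 CPM with 5-Ad-IAA. The lines did not overlap, with a log2 difference of 0.73 untreated (1.66-fold, SE 0.186, adjusted p = 0.0224) and 1.18 with 5-Ad-IAA (2.26-fold, SE 0.187, adjusted p = 0.000585). Its paralogue AMOTL1 (ENSG00000166025.18, chromosome 11) went the other way: 96.8, 124 and 87.5 CPM in untreated WT, 95.9, 103 and 112 CPM in treated WT, 88.1, 86.3 and 86.8 CPM in untreated NS1 and 73.0, 86.5 and 70.1 CPM in treated NS1. Untreated lines overlapped (log2 difference -0.24, SE 0.130, adjusted p = 0.257), while with 5-Ad-IAA every NS1 library was below every WT library (log2 difference -0.44, 0.738-fold, SE 0.130, adjusted p = 0.0229). RPL39P5, on the same strand, shares 187 exon bases with AMOTL2 and held at most 154 counts, against at least 751 for AMOTL2. ENSG00000256469, on the opposite strand, shares 496 exon bases with AMOTL1 and held at most 121 counts, against at least 844 for AMOTL1.

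AJUBA (ENSG00000129474.16, chromosome 14), a LIM-domain protein that binds and inhibits LATS kinases, held 91.0, 66.2 and 57.5 CPM in untreated WT libraries and 83.3, 59.5 and 56.2 CPM in treated ones. NS1 libraries held 104, 118 and 111 CPM untreated and 137, 188 and 194 CPM with 5-Ad-IAA. It was the one gene of the 10 whose treated and untreated NS1 libraries did not overlap. The log2 difference between lines was 0.63 untreated (1.54-fold, SE 0.191, adjusted p = 0.0483) and 1.38 with 5-Ad-IAA (2.6-fold, SE 0.193, adjusted p = 0.000243), and the untreated call was lost when library totals replaced TMM scaling. A gene on the same strand, ENSG00000259132, shares 50 exon bases with AJUBA and held at most 342 counts, where AJUBA held at least 595.

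LATS2 (ENSG00000150457.9, chromosome 13), the Hippo kinase that phosphorylates YAP, held 24.6, 37.2 and 25.1 CPM in untreated WT, 23.2, 29.8 and 29.6 CPM in treated WT, 36.3, 38.1 and 35.4 CPM in untreated NS1 and 35.4, 44.1 and 34.4 CPM in treated NS1. One untreated WT library reached the NS1 range, and the log2 difference of 0.34 did not pass (SE 0.165, adjusted p = 0.206). With 5-Ad-IAA the lines did not overlap, and the log2 difference of 0.46 missed the threshold (SE 0.165, adjusted p = 0.0511). LATS2 passed there with DESeq2 (adjusted p = 0.037), with either other low-count filter and with only the groups compared (adjusted p = 0.0402).

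AXL (ENSG00000167601.12, chromosome 19), a receptor tyrosine kinase for GAS6, held 543, 488 and 495 CPM in untreated WT and 531, 467 and 520.2 CPM in treated WT. NS1 libraries held 941, 682 and 692 CPM untreated and 958, 696 and 662 CPM with 5-Ad-IAA. All NS1 libraries were above all WT libraries, with replicate 1 the highest. The log2 difference was 0.60 untreated (1.52-fold, SE 0.157, adjusted p = 0.0246) and 0.61 with 5-Ad-IAA (1.53-fold, SE 0.157, adjusted p = 0.0111). An antisense gene, ENSG00000269652, shares 67 exon bases with it and held at most 610 counts, against at least 5125 for AXL.

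Of the DNA-binding factors, neither TEAD gene passed between the lines at the settings used throughout. TEAD1 (ENSG00000187079.17, chromosome 11) held 148, 212 and 128 CPM in untreated WT, 136, 153 and 162 CPM in treated WT, 227, 211 and 188 CPM in untreated NS1 and 212, 214 and 184 CPM in treated NS1. TEAD4 (ENSG00000197905.9, chromosome 12) held 36.8, 27.7 and 31.3 CPM, 38.0, 30.1 and 30.3 CPM, 24.3, 32.9 and 34.0 CPM, and 20.2, 27.1 and 26.5 CPM in the same groups. Treated lines did not overlap for either gene, with TEAD1 higher and TEAD4 lower in NS1. The log2 differences with 5-Ad-IAA were 0.44 for TEAD1 (SE 0.160, adjusted p = 0.0572) and -0.42 for TEAD4 (SE 0.167, adjusted p = 0.0759). TEAD1 passed there with DESeq2 (adjusted p = 0.0366), with either other low-count filter and with only the groups compared, and TEAD4 with library totals (adjusted p = 0.0363) and with no low-count filter. Untreated they were 0.36 for TEAD1 (SE 0.160, adjusted p = 0.164) and -0.08 for TEAD4 (SE 0.166, adjusted p = 0.803).

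Counted over libraries, the untreated CPM of NS1 and WT did not overlap for 6 of the 10 genes, all 6 higher in NS1, where 31% of all genes tested did not overlap. With 5-Ad-IAA all 10 did not overlap, 8 higher and 2 lower in NS1, where the share of all genes was 43.4%. Many untreated calls were lost when 1 library was left out, but all 6 of the genes called untreated stayed higher in NS1. Over all genes, 2222 passed with all libraries and 1198 to 1780 with 1 untreated library left out. Of the 6 genes called untreated, 1 was called without WT replicate 3 (CCN2) and 1 without NS1 replicate 2 or without NS1 replicate 3 (AXL), 3 without WT replicate 1 (CCN2, AXL and AJUBA), 4 without NS1 replicate 1 (CCN1, CCN2, ANKRD1 and AMOTL2) and 3 without WT replicate 2 (CCN1, CCN2 and AMOTL2, with LATS2 and TEAD1 newly called). The same 6 were called without replicate 1 of every group, but 0 without replicate 2 and 0 without replicate 3 of every group. Over all genes, 3466 of 17667, 204 of 18070 and 182 of 18186 were called in these 3 settings. With 5-Ad-IAA, the same 7 were called without replicate 1 of every group, 4 without replicate 2 (CCN2, ANKRD1, AMOTL2 and AJUBA) and 3 without replicate 3 (CCN2, AMOTL2 and AJUBA). The counts over all genes were 6007 of 17667, 1632 of 18070 and 2127 of 18186, in the same order. Leaving out 1 treated library lost CCN1 (WT replicate 1 or NS1 replicate 2), AXL (WT replicate 2) or AMOTL1 (WT replicate 2 or 3, NS1 replicate 1 or 3).

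**Figure D3:**
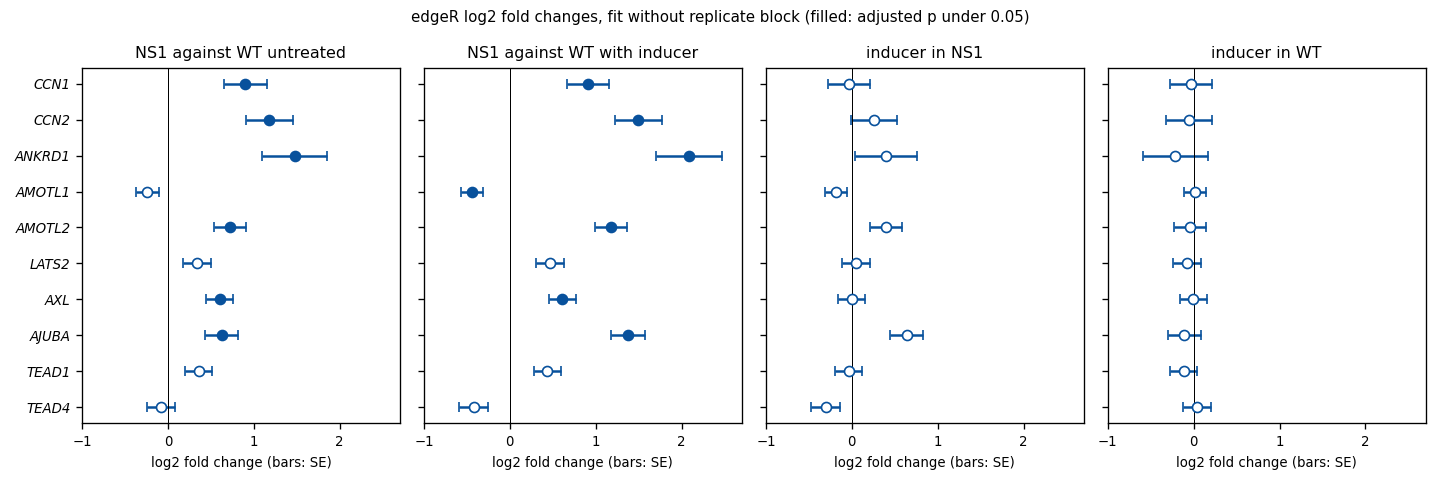
Log2 fold changes of the 10 genes in 4 comparisons, from the edgeR fit without a replicate block, with bars for 1 SE on each side and filled points for adjusted p under 0.05. In both comparisons of the lines 6 targets are filled to the right of 0, ANKRD1 farthest, and in the 5-Ad-IAA comparisons no point is filled.

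For 5-Ad-IAA in NS1 cells, AJUBA, ANKRD1, AMOTL2, CCN2 and TEAD4 passed where same-numbered libraries of the line were compared with each other. The labels do not state such pairs. AJUBA, ANKRD1, AMOTL2 and CCN2 rose and TEAD4 fell, while CCN1, AXL, LATS2, TEAD1 and AMOTL1 did not pass. In the fit without pairs none of the 10 passed by edgeR's quasi-likelihood test (2 had an unadjusted p under 0.05), where 6.15% of all genes passed. DESeq2 called 1 of the 10, AJUBA, where 1474 of 17427 genes passed. Without replicate 1 of every group, or without the treated replicate 1, AMOTL2 and AJUBA passed in the edgeR fit without pairs. Over all genes, 2021 of 17667 and 1179 of 18017 passed in these 2 settings. In the fit with the replicate number as a block within each line, 5 of 10 passed, 4 higher and 1 lower. In that fit 25.9% of all genes passed, 13% higher and 12.8% lower. With 1 block for the number across both lines, 1 of 10 passed (AJUBA, log2 change 0.65, adjusted p = 0.0415), where 13.6% of all genes passed.

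AJUBA was higher with 5-Ad-IAA in 3 of 3 NS1 pairs, by 0.40 to 0.80 on the log2 scale. Its log2 change was 0.64 without pairs (1.56-fold, SE 0.190, adjusted p = 0.0641) and 0.62 with the block within each line (1.54-fold, SE 0.0789, adjusted p = 4.39e-05). ANKRD1 was higher in 3 of 3 pairs, by 0.21 to 0.57, with a log2 change of 0.40 without pairs (SE 0.365, adjusted p = 0.606) and 0.43 with the block (SE 0.0889, adjusted p = 0.00227). AMOTL2 was higher in 3 of 3 pairs, by 0.16 to 0.48, with 0.40 (SE 0.184, adjusted p = 0.235) and 0.37 (SE 0.0793, adjusted p = 0.0028). The pairs of replicate 1 were the weakest for AJUBA and AMOTL2 and the strongest for ANKRD1.

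CCN2 was higher in 3 of 3 pairs, by 0.13 to 0.34, with a log2 change of 0.26 without pairs (SE 0.269, adjusted p = 0.666) and 0.24 with the block (SE 0.0722, adjusted p = 0.0219). Its partner CCN1 had pairs from -0.12 to 0.03 and a log2 change of -0.03 without pairs (SE 0.243, adjusted p = 0.967). TEAD4 was lower in 3 of 3 pairs, from -0.36 to -0.27, with a log2 change of -0.30 without pairs (SE 0.168, adjusted p = 0.339) and -0.30 with the block (SE 0.0795, adjusted p = 0.0121). AXL, LATS2 and TEAD1 had log2 changes of 0.00073, 0.05 and -0.04 without pairs, and AMOTL1 -0.19 (SE 0.130, adjusted p = 0.47). Treated and untreated NS1 libraries overlapped for all of the 10 genes except AJUBA, while 27.2% of all genes tested did not overlap. With the block and without replicate 1, 2 or 3 of both groups, 2 (AMOTL2 and AJUBA), 3 (ANKRD1, AMOTL2 and AJUBA) and 5 of the 10 passed. Over all genes, 1822 of 17667, 3183 of 18070 and 4676 of 18186 passed, in the same order. These settings were chosen after the data were seen.

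**Figure D4:**
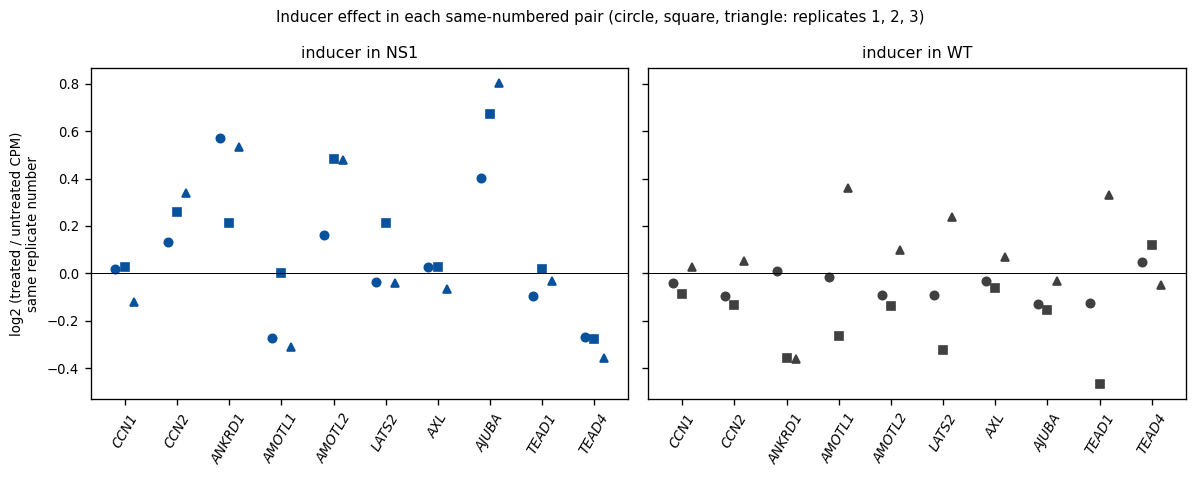
Log2 ratio of treated to untreated CPM for each same-numbered pair of libraries of 1 line, NS1 on the left and WT on the right, for the 10 genes on the horizontal axis; circles, squares and triangles are replicates 1, 2 and 3. In NS1 all 3 AJUBA pairs lie between 0.40 and 0.80 and all 3 TEAD4 pairs below 0, and in WT the 3 AJUBA pairs lie between -0.15 and -0.03.

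In WT cells, which carry the WT genotype label and received the same ligand, none of the 10 genes passed in either fit. None had an unadjusted p under 0.05 by edgeR without pairs, and DESeq2 called 0. Over all 17775 genes, 0% passed by edgeR without pairs, where 94 genes had an unadjusted p under 0.05. With the block within each line 0% passed as well, and the unadjusted count was 476. With that block and without replicate 3 of every group, a setting chosen after the data were seen, 437 of 18186 genes passed. TEAD1 was the 1 gene of the 10 among them, with a log2 change of -0.29 (adjusted p = 0.0368 by edgeR). Treated and untreated WT libraries overlapped for all 10 genes, where 3.41% of all genes did not overlap. AJUBA was lower in 3 of 3 pairs, from -0.15 to -0.03, with a log2 change of -0.11 (SE 0.191, adjusted p = 1). ANKRD1 had a log2 change of -0.21 (SE 0.383, adjusted p = 1), and the other 8 lay between TEAD1 at -0.12 and TEAD4 at 0.04.

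The difference between the 5-Ad-IAA effects in NS1 and WT was tested directly. In the fit without pairs 0 of 10 passed by edgeR (1 had an unadjusted p under 0.05), where 0.0225% of all genes passed. DESeq2 called 0 of 10, where 377 of 13636 genes passed. With the block within each line 3 of 10 passed, all 3 higher in NS1: AJUBA, ANKRD1 and AMOTL2. In that fit 14% of all genes passed, 6.98% in the higher direction. AJUBA differed by 0.73 on the log2 scale with the block (SE 0.114, adjusted p = 0.000679) and by 0.75 without it (SE 0.269, adjusted p = 0.253). ANKRD1 differed by 0.64 with the block (SE 0.137, adjusted p = 0.0057) and by 0.61 without it (SE 0.529, adjusted p = 0.741). AMOTL2 differed by 0.42 (SE 0.114, adjusted p = 0.0229) and by 0.45 (SE 0.262, adjusted p = 0.543) in the same order. CCN2 at 0.30 (SE 0.103, adjusted p = 0.065) and TEAD4 at -0.34 (SE 0.110, adjusted p = 0.0535) did not pass with the block. With the block and without replicate 1, 2 or 3, the count passing was 1 (AJUBA), 2 (ANKRD1 and AJUBA) and 4 (CCN2 as well as the 3 named above). Over all genes, 417 of 17667, 1420 of 18070 and 3725 of 18186 passed, in the same order.

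Other genes of the pathway were read from 4 lists. The Hippo kinases, scaffolds and upstream regulators had 15 members, the coactivators and other TEAD partners 8, other genes of published YAP signatures 16, and targets of the actin-regulated factors SRF and MRTF 11. VGLL1 and VGLL2 had no count in any library and CNN1 had at most 2 counts in a library, so 6 of the 8 and 10 of the 11 were tested in those lists. The comparisons below share libraries with one another (the treated NS1 libraries enter both the 5-Ad-IAA effect and the comparison of treated lines), and their values are given side by side.

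Between treated lines, 12 of the 16 other signature genes passed, 10 higher and 2 lower in NS1, and 8 of the 10 SRF-MRTF targets tested passed, all higher, where 28.2% of all genes passed and 13.6% passed higher. The median log2 difference was 0.70 for the signature genes and 1.05 for the SRF-MRTF targets. TGFB2, a secreted growth factor, was 9.53 ± 3.81 CPM in treated WT and 166 ± 53.8 CPM in treated NS1 (SD, n = 3), a log2 difference of 4.09 (SE 0.369, adjusted p = 1.12e-05 by edgeR). RBMS3, an RNA-binding protein, differed by 1.77 (SE 0.234) and MYOF, a membrane-repair ferlin, by 1.26 (SE 0.220). The MYOF call was lost without replicate 2 of every group (adjusted p = 0.0608 by edgeR). NT5E, the CD73 ectonucleotidase, was lower by -1.59 (SE 0.233, adjusted p = 0.000324 by edgeR). Among actin-related genes, TAGLN, a calponin-related actin-binding protein, was 85.5 ± 30.7 CPM in treated WT and 515 ± 132 CPM in treated NS1 (SD, n = 3), a log2 difference of 2.60 (SE 0.294). TPM1 (tropomyosin) differed by 1.76 (SE 0.144), VCL (vinculin) by 1.19 (SE 0.149) and FHL2 by 0.91 (SE 0.111). In untreated lines 2 of the 16 signature genes passed, both higher (TGFB2 by 2.17 and RBMS3 by 1.31), and 6 of the 10 SRF-MRTF targets, all higher, where 12.5% of all genes passed and 5.45% passed higher. The share of signature genes that passed untreated was that of all genes.

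In the Hippo cascade itself, 7 of 15 passed between treated lines, 5 higher and 2 lower, with a median of 0.34, where 28.2% of all genes passed. The scaffold WWC1 (KIBRA) was 35.6 ± 3.20 CPM in treated WT and 101 ± 21.4 CPM in treated NS1 (SD, n = 3), a log2 difference of 1.50 (SE 0.140). FRMD6, an upstream activator, differed by 1.20 (SE 0.197) and WTIP, a LIM protein of the AJUBA family, by 0.87 (SE 0.175). The kinase TAOK3 was lower by -0.52 (SE 0.105). Without replicate 2 of every group the calls of WTIP (adjusted p = 0.0543 by edgeR) and TAOK3 (0.0606) were lost, and without replicate 3 that of TAOK3 (0.0534). Untreated, 4 of 15 passed, 3 higher (WWC1 by 0.94, FRMD6 by 0.68 and WTIP by 0.60) and TAOK3 lower by -0.66, where 12.5% of all genes passed. Negative regulators and activators of YAP stand together in this list, so its count gives no direction of pathway activity.

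Of the 2 coactivators, WWTR1 passed the test and YAP1 did not. YAP1 was 143 ± 29.4, 130.0 ± 15.6, 169.7 ± 22.2 and 166 ± 21.9 CPM in untreated WT, treated WT, untreated NS1 and treated NS1 (SD, n = 3), and did not pass between treated lines (log2 difference 0.36, SE 0.159, adjusted p = 0.113) or for 5-Ad-IAA in NS1 (-0.03, SE 0.159, adjusted p = 0.947). WWTR1, which encodes TAZ, was 137 ± 16.0, 136 ± 15.3, 162 ± 24.3 and 102 ± 17.3 CPM in the same groups. It fell with 5-Ad-IAA in NS1 by 0.67 on the log2 scale (0.627-fold, SE 0.150, adjusted p = 0.02 by edgeR). This call was lost without untreated replicate 1 or treated replicate 2 or 3 (adjusted p up to 0.0957). The same held without replicate 2 (0.239) or replicate 3 (0.261) of every group. WWTR1 was also lower in treated NS1 than in treated WT (-0.43, SE 0.150, adjusted p = 0.0495 by edgeR). That call was lost in 3 of 7 other settings with all libraries (adjusted p up to 0.0643) and without WT replicate 1 or 3 or NS1 replicate 2 or 3 (up to 0.193). Leaving out replicate 2 (0.177) or replicate 3 (0.342) of every group lost it too. VGLL3, a TEAD cofactor, was higher in treated NS1 by 1.73 (SE 0.332) and TEAD3 by 0.56 (SE 0.110). Without replicate 3 of every group the calls of VGLL3 (adjusted p = 0.0583 by edgeR) and TEAD3 (0.0507) were lost. Of the 6 genes tested in this list, 3 passed between treated lines, 2 higher and 1 lower, and 2 passed untreated, 1 in each direction, where 28.2% and 12.5% of all genes passed.

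For 5-Ad-IAA in NS1, the share of all genes that passed without pairs was 6.15%. None of the 15 Hippo genes passed by edgeR without pairs (3 had an unadjusted p under 0.05), and 1 of 6 coactivators and partners (WWTR1), 3 of 16 signature genes and 1 of 10 SRF-MRTF targets did. The signature genes were TGFB2, from 53.9 ± 13.8 to 166 ± 53.8 CPM (SD, n = 3; log2 change 1.62, adjusted p = 0.012 by edgeR), and FJX1 and NT5E, which fell by 0.66 and 1.12 on the log2 scale. TPM1 was the SRF-MRTF target, with a log2 change of 0.57 (SE 0.140, adjusted p = 0.0319). The TPM1 call was lost with only the groups compared (adjusted p = 0.0698) and without any 1 NS1 library except treated replicate 1 (up to 0.126), and that of NT5E without untreated replicate 2 (0.0591) or treated replicate 3 (0.0548). Without replicate 2 or without replicate 3 of every group, 0 of 18070 and 0 of 18186 genes passed, so all of these calls were lost, TGFB2 and FJX1 included. With the block within each line the counts were 4 of 15 (3 higher), 3 of 6 (2 higher), 8 of 16 (5 higher) and 8 of 10 (7 higher), where 25.9% of all genes passed. In WT cells none of the tested genes of the 4 lists passed by edgeR without pairs or with the block, and 0, 0, 1 and 0 of them had an unadjusted p under 0.05 without pairs.

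**Figure D5:**
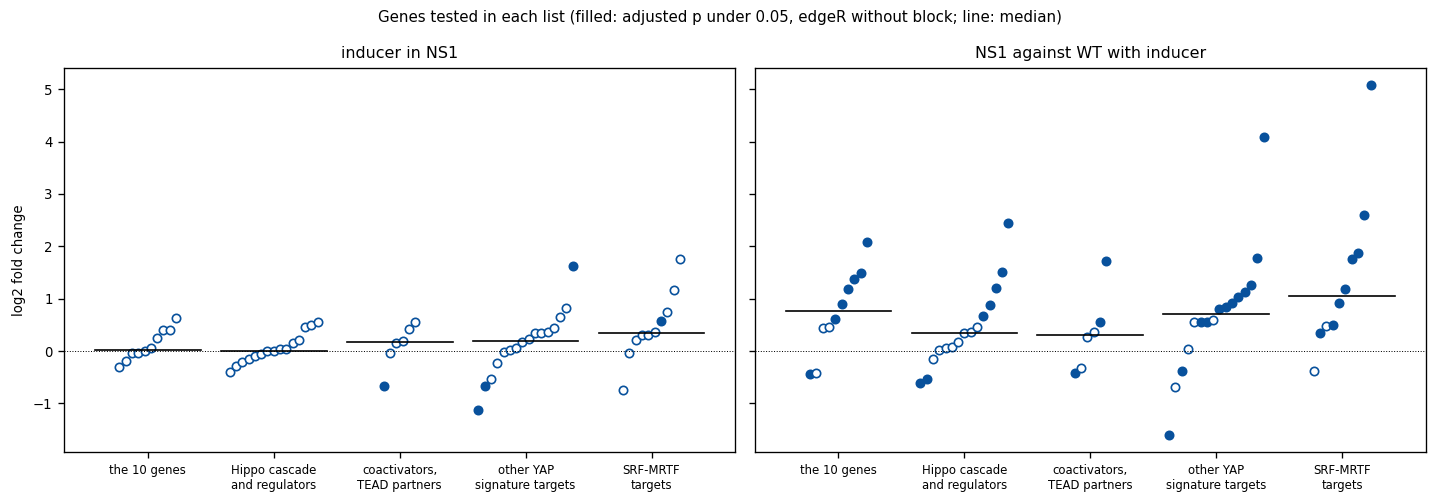
Log2 fold changes of every tested gene in the set of 10 and in the 4 pathway lists, for 5-Ad-IAA in NS1 cells on the left and NS1 against WT with 5-Ad-IAA on the right; points are genes, filled where the adjusted p was under 0.05 without pairs, and lines are medians. On the right the medians are 0.76 for the 10 genes, 0.34, 0.31 and 0.70 for the next 3 lists and 1.05 for the SRF-MRTF targets.

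The 10 profiles over the 12 libraries were also compared with each other, as the root mean square distance of mean-centred log2 CPM. LATS2 and TEAD1 were the closest pair at 0.105, and ANKRD1 and AMOTL1 the farthest at 1.15. Among 16519 genes with a mean of at least 1 CPM, the profile nearest to CCN1 was that of GADD45A, a growth-arrest gene that also stands in the YAP signature list, at 0.135, followed by SNAPC1 at 0.168 and NUAK1 at 0.173, against a median distance of 0.601. The profile nearest to CCN2 was that of RND3 at 0.101, followed by AL133346.1 at 0.141, the antisense gene that overlaps CCN2, and STC2 at 0.176, against a median of 0.806. The nearest to ANKRD1 were ADAM23 at 0.205, ENSG00000232110 at 0.206 and MATN2 at 0.231, against a median of 1.01. All of these distances rest on the same 12 libraries and their 2 lines.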

How the data were processed

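RNA was measured in 12 libraries of T24 cells. The authors deposited 1 table of raw, whole-number read counts per gene, aligned with STAR 2.7.3a and counted with featureCounts 1.6.4 on hg38, per the submitters' processing notes. The annotation and strand setting are not given in the sources used here, so overlapping and antisense genes may share reads. Genes were tested with edgeR 4.0.16 (R 4.3.3, filterByExpr, TMM, quasi-likelihood, 1 mean per group, all 12 libraries), with Benjamini-Hochberg adjustment over 17775 genes and a threshold of 0.05. CPM are normalised by TMM. RPKM use summed exon lengths from GENCODE 29. The script was tested on simulated data.

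Samples that share a number deviated together within a line: correlations of deviations were 0.713, 0.386 and 0.384 in NS1 and 0.752, 0.385 and 0.256 in WT. The block within each line therefore stands beside the 5-Ad-IAA results. The closest replicates still differed beyond sampling noise (chi-square per degree of freedom 3.03).

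Each of the 10 genes is described. From the other lists, up to 4 genes passing the test with the lowest adjusted p are named for 5-Ad-IAA in NS1 and for the treated lines, plus YAP1 and WWTR1, and for CCN1, CCN2 and ANKRD1 the 3 nearest profiles (prior count 2). The genes and lists were chosen with earlier results of these data known. The alternatives were other scalings, filters, DESeq2 1.42.0, replicate blocks, fits on only the groups compared, and leaving out libraries.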

Additional observations from a re-analysis of the deposited data

Results flagged for a closer look

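For 3 genes the 5-Ad-IAA effect differed between NS1 and WT cells in the edgeR fit with the replicate number as a block within each line. The difference was 0.73 on the log2 scale for AJUBA (adjusted p = 0.000679), 0.64 for ANKRD1 (adjusted p = 0.0057) and 0.42 for AMOTL2 (adjusted p = 0.0229). Every same-numbered AJUBA pair went up in NS1 and down in WT, and in the fit without pairs this difference was 0.75 (adjusted p = 0.253 by edgeR), which did not pass. ANKRD1 and AMOTL2 did not pass without pairs either.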

How the results depend on the processing

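Among 1469 recalculated values of single genes, 1204 kept their direction and side of the threshold, 124 no longer passed, 50 newly passed and 91 changed sign. For 5-Ad-IAA in NS1, 0 of 10 were called. AJUBA alone was called with no low-count filter, 1 replicate block across lines, only the groups compared and DESeq2. Over all genes, 1801 of 34084, 2421 of 17775, 1007 of 17221 and 1474 of 17427 passed, in the same order. The replicate block within each line called 5, where 4596 of 17775 genes passed. When libraries were left out 0 to 5 were called, and 2 passed without replicate 1 or without NS1 treated replicate 1. Over all genes, 2021 of 17667 and 1179 of 18017 passed in the latter settings. For the difference between lines in the 5-Ad-IAA effect (0 of 10), 1 passed with no low-count filter, 3 with the replicate block within each line and 0 to 4 with libraries left out. Over all genes, 683 of 34084 passed with no low-count filter and 2495 of 17775 with that block. In WT (0 of 10) the left-out range was 0 to 1 (TEAD1, block, without replicate 3, where 437 of 18186 genes passed). Between untreated lines (6 of 10) it was 0 to 6, with 0 without replicate 2 and 0 without replicate 3, and library totals gave 5, without AJUBA, where 2189 of 17775 genes passed. Between treated lines (7 of 10) it was 3 to 7, with 3 without replicate 3 and 4 without replicate 2, and 7 to 10 otherwise. Over all genes, 5471 of 34084 passed with no low-count filter, which called 10, and 4530 to 6670 in the rest of the settings with all libraries. Same-numbered libraries of the 2 lines did not all deviate together (0.136, 0.0719 and 0.19 untreated, 0.153, 0.12 and 0.00601 treated). A replicate block on the lines gave 6 and 9 calls, the latter with LATS2 (adjusted p = 0.00954 by edgeR) and TEAD1 (adjusted p = 0.0279) added. Over all genes, that block called 3908 and 6670 of 17775, against 2222 and 5007 without it. Values near 0 changed sign. For 5-Ad-IAA in NS1, LATS2 became -0.0094 with library totals, and AXL -0.059 with library totals, -0.000702 with no low-count filter, -0.0012 with the replicate block, -0.0029 with it within each line and -3.46e-05 with only the groups compared. For the difference in effects, CCN1 became -0.044 with library totals and -0.0012 with no low-count filter, and AXL -0.042 with library totals. With libraries left out, log2 values for 5-Ad-IAA in NS1 ranged over -0.21 to 0.13 for CCN1, -0.0703 to 0.12 for LATS2, -0.19 to 0.17 for AXL, -0.11 to 0.0348 for TEAD1 and -0.11 to 0.0804 for YAP1. In WT they ranged over -0.22 to 0.16 for CCN1, -0.28 to 0.18 for CCN2, -0.15 to 0.17 for AMOTL1, -0.12 to 0.00502 for AMOTL2, -0.22 to 0.14 for LATS2, -0.0469 to 0.0467 for AXL, -0.31 to 0.10 for AJUBA, -0.32 to 0.12 for TEAD1 and -0.0852 to 0.16 for TEAD4. Between untreated lines TEAD4 ranged over -0.23 to 0.18. For the difference in effects the ranges were -0.19 to 0.19 for CCN1, -0.46 to 0.0255 for AMOTL1, -0.12 to 0.32 for LATS2, -0.18 to 0.17 for AXL and -0.17 to 0.29 for TEAD1. The causes were not tested. The lowest count of the 10 genes in a library, 174 for ANKRD1, sets the depth limit.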
